A study of Nothobranchius furzeri with 10 samples.

Results

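The 200 genes whose read counts varied most between control brains of the turquoise killifish (Nothobranchius furzeri, an annual fish) are described here, out of 26739 genes in the count table. They were chosen on CPM (a gene's count per 1000000 counts of its library). The 200 genes with the highest mean CPM in the 5 DMSO libraries were set aside, as were genes whose rotenone and DMSO ranges did not overlap. Of the 11681 remaining genes with a DMSO mean of at least 10 CPM, called candidates below, the members are the 200 with the largest ratio of standard deviation to mean (SD/mean) over the 5 DMSO libraries. The DMSO values therefore chose the members, and everything said of variation in DMSO is a description with no test.

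RNA came from brains of males aged 27 weeks, strain MZM-0410p, 5 samples with rotenone at 15 pM and 5 with DMSO, the solvent control. Rotenone inhibits complex I of the mitochondrial respiratory chain. All 10 samples share strain, sex, age and tissue, and the labels give neither the length nor the route of exposure. They also do not state that every sample is its own animal, so the p-values rest on the spread between the samples as given, which may be technical. Replicates are numbered in accession order, and a number shared by the treatments pairs nothing.

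Levels of RNA in the brain differ between animals of the same age, sex and treatment. In vertebrates, genes with large differences between brains are known to include those switched on by recent neuronal activity, genes of immune cells, and genes of tissues attached to the brain such as the pituitary and the meninges. The files identify genes by identifier only, and 0 of the 26739 identifiers occur in the RefSeq gene table of the species, so members stand here by identifier. No role can be given to any of them, the brain label could not be checked against marker genes, and the makeup of the samples in cells was not analysed here. In whole tissue, more cells of a type and more RNA per cell cannot be told apart.

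The libraries held 16693800 to 28047585 counts with rotenone and 15536771 to 31017835 counts with DMSO. Rotenone replicate 1 stood apart from its group: its mean Spearman correlation with the other rotenone libraries over genes was 0.958, lower than the 0.974 to 0.980 of the other rotenone libraries and the 0.984 to 0.988 of the DMSO libraries. Members took 1.22% of the counts of rotenone replicate 1 and 0.395% to 0.592% in the other 4 rotenone libraries, against 0.493% to 0.978% in the DMSO libraries. The lowest DMSO share, 0.493%, belonged to DMSO replicate 4.

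Among the members the SD/mean over the DMSO libraries ranged from 0.444 to 2.01 with a median of 0.533, where the median over all candidates was 0.0838. The highest DMSO library exceeded the lowest by a median of 4.03-fold in members and 1.23-fold in candidates. Counting error alone would give members a median SD/mean of 0.0434, and it made up at most 14.2% of the observed value in any member. The limit was not a natural gap. The last 2 members had an SD/mean of 0.446 and 0.444, and the next 2 genes outside had 0.444 and 0.443. Members were less abundant than candidates, with a median DMSO mean of 21.6 CPM against 37.3 CPM, and 120 of the 200 had a DMSO mean under 30 CPM. Per length, as RPKM recomputed from the counts, the median DMSO level was 9.80 in members and 12.9 in candidates. The median gene length was 2820 bases in the 199 members with a length and 3294 bases in candidates.

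The highest DMSO value of a member lay most often in DMSO replicate 3, with 87 members, and next in DMSO replicate 1, with 58. DMSO replicate 5 was the highest for 27 members, DMSO replicate 2 for 17 and DMSO replicate 4 for 11. At the other end, DMSO replicate 4 was the lowest DMSO library for 96 members, or 48% of them, where it was the lowest for 24.1% of candidates. In the rotenone libraries, whose order played no part in the ranking, replicate 1 was the highest for 108 members, or 54%, against 28.0% of candidates.

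**Figure D1:**
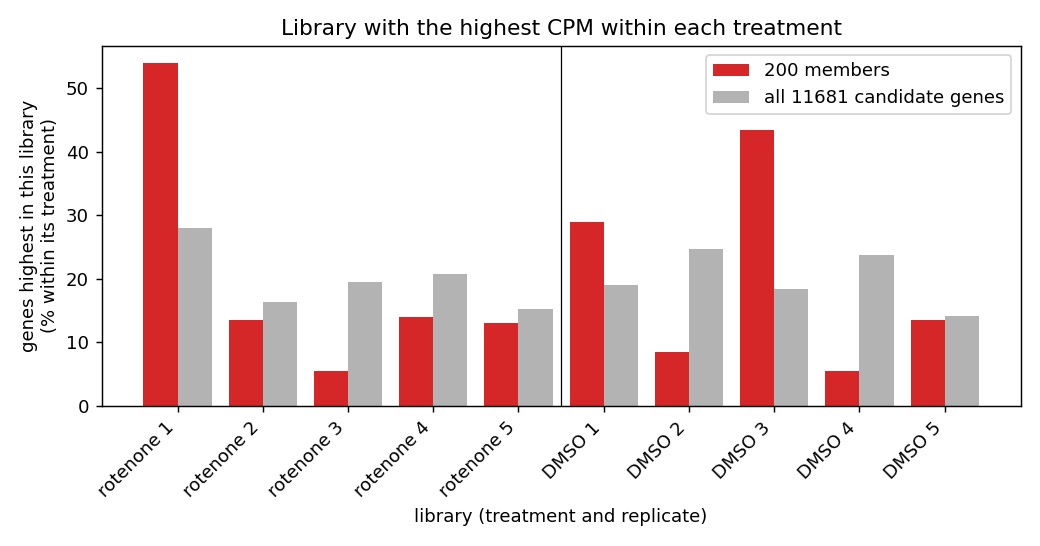
Percentage of the 200 members (red) and of all 11681 candidates (grey) whose highest CPM within a treatment lies in each library, with the rotenone libraries left of the DMSO libraries. Members pile up in rotenone replicate 1 (54%) and DMSO replicate 3 (43.5%), where candidates reach 28.0% and 18.4%.

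In 52 members a single DMSO library was at least 2 times the next, and these single high libraries were DMSO replicate 1 in 22 members, replicate 3 in 17, replicate 5 in 8 and replicate 2 in 5. DMSO replicate 4 was never such a library. In 35 members the next lowest DMSO library was at least 2 times the lowest, and in 22 of these the lowest was replicate 4. Both held in 6 members and neither in 119, in which no library stood 2-fold apart from the next at either end. The count of 52 depends on the ratio asked for: 126 members had a single DMSO library at 1.5 times the next, and 8 at 3 times. Without DMSO replicate 2, 81 members had a single DMSO library at 2 times the next of the remaining 4.

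The 5 members with the largest SD/mean in DMSO each had 1 DMSO library at 2.99 times the next or more. Nfu_g_1_009223 had 1.24, 1.35, 0.889, 0.599 and 0.956 CPM in rotenone replicates 1 to 5, against 1.48, 1.26, 57.2, 1.29 and 0.901 CPM in DMSO replicates 1 to 5. It was thus near 1 CPM in 9 libraries and 38.6 times its next DMSO value in DMSO replicate 3. Its SD/mean was 2.01 in DMSO and 0.297 in rotenone.

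Nfu_g_1_014183 had 10.4, 8.13, 5.74, 17.8 and 34.5 CPM in rotenone replicates 1 to 5, against 105, 370, 7.003, 8.85 and 40.2 CPM in DMSO replicates 1 to 5. DMSO replicates 1, 2 and 5 were above every rotenone library, and DMSO replicates 3 and 4 lay inside the rotenone range. Nfu_g_1_006862 followed the same order among the DMSO libraries, with 3.63, 1.96, 1.13, 9.11 and 9.56 CPM in rotenone replicates 1 to 5, against 13.0, 38.9, 1.22, 2.74 and 9.46 CPM in DMSO replicates 1 to 5. In both genes rotenone replicate 3 was the lowest and rotenone replicate 5 the highest rotenone library.

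Nfu_g_1_019572 had 9.74, 7.67, 5.09, 4.01 and 11.5 CPM in rotenone replicates 1 to 5, against 6.45, 8.63, 38.7, 3.06 and 5.15 CPM in DMSO replicates 1 to 5. As in Nfu_g_1_009223, the high library was DMSO replicate 3, here 4.48 times the next. Nfu_g_1_021789 had 8.09, 26.3, 28.4, 4.55 and 4.01 CPM in rotenone replicates 1 to 5, against 7.16, 40.6, 8.05, 5.33 and 5.66 CPM in DMSO replicates 1 to 5. This gene had a high level in 3 of the 10 libraries, rotenone replicates 2 and 3 and DMSO replicate 2, and at most 8.09 CPM in the others.

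The same measure in the rotenone libraries, which the ranking did not use, was also high in most members. The SD/mean over the 5 rotenone libraries had a median of 0.637 in members and 0.112 in candidates. It reached the smallest DMSO value of the members, 0.444, in 160 of the 200 members (80%), against 589 of the 11481 other candidates (5.13%). The rotenone ranges had entered the rule through the overlap condition, and this contrast was not tested. The counts depended on rotenone replicate 1. Without that library 89 of the 200 members (44.5%) reached 0.444, against 197 of the 11481 other candidates (1.72%), and the median SD/mean over the other 4 rotenone libraries was 0.406 in members and 0.0846 in candidates.

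**Figure D2:**
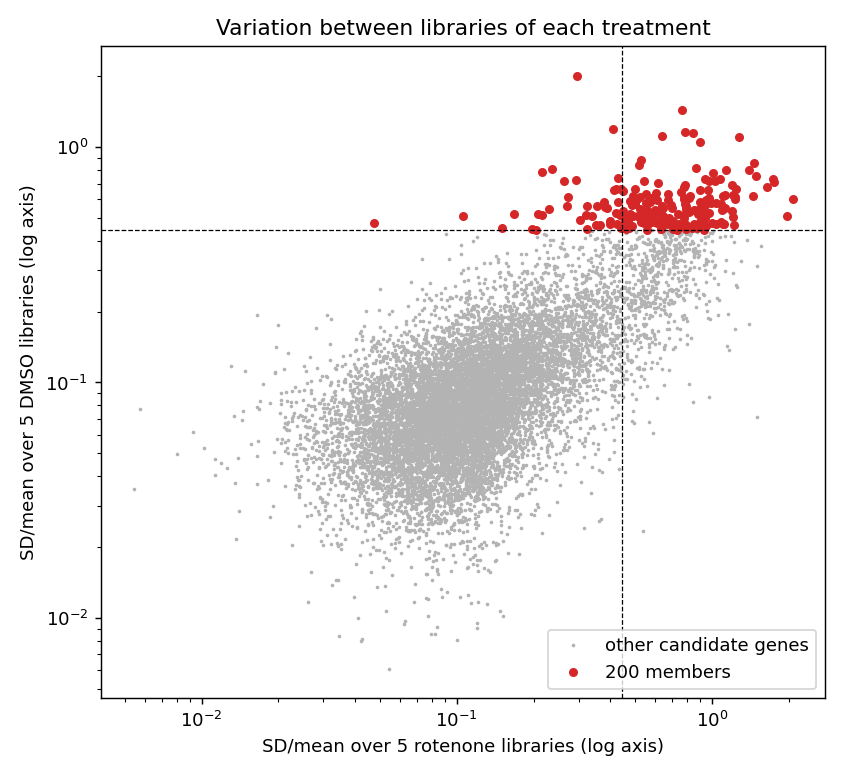
SD/mean over the 5 rotenone libraries (x, log axis) and over the 5 DMSO libraries (y, log axis) for the 200 members (red) and the other candidates (grey); dashed lines mark 0.444, the smallest DMSO value of a member. Of the members, 160 lie right of the vertical line, and they lie above the horizontal line by the rule.

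The SD/mean was above 1 in 33 members in rotenone, or 15 without rotenone replicate 1, against 8 members in DMSO. Among the 11481 other candidates it was above 1 in 31 genes in rotenone, or 6 without rotenone replicate 1. In DMSO it was above 1 in 0 of them, by the rule. A rotenone SD/mean above the gene's own DMSO value was found in 128 members (64%), against 71.8% of all candidates. Without rotenone replicate 1 it was found in 58 members (29%), against 5955 of the 11681 candidates. Members were chosen for a high DMSO value, so nothing is read from their lower shares. The 2 largest rotenone values both rested on rotenone replicate 1. Nfu_g_1_005078 had 1073, 17.6, 11.3, 13.7 and 25.7 CPM in rotenone replicates 1 to 5, against 36.7, 60.8, 88.6, 24.9 and 125 CPM in DMSO replicates 1 to 5. Rotenone replicate 1 was 41.8 times the next rotenone library, while rotenone replicates 2, 3 and 4 lay below the lowest DMSO library and rotenone replicate 5 just above it. Nfu_g_1_010475 had 169, 1.53, 6.02, 3.95 and 6.06 CPM in rotenone replicates 1 to 5, against 32.2, 25.7, 12.5, 7.33 and 19.8 CPM in DMSO replicates 1 to 5. Its other 4 rotenone libraries were all below the lowest DMSO library.

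At the other extreme stood Nfu_g_1_016456, chosen after its values were seen. It had 14.11, 15.3, 14.8, 15.6 and 14.0 CPM in rotenone replicates 1 to 5, against 15.0, 13.7, 33.5, 13.3 and 15.3 CPM in DMSO replicates 1 to 5. Its SD/mean over the rotenone libraries, 0.0472, was below the 0.0546 that counting error gives. Its high value was that of DMSO replicate 3.

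Many members varied together. Each gene was put on the log2(CPM + 1) scale and centred on its own treatment mean, and genes were joined in a tree by their Pearson correlation over the 10 libraries, cut at 0.7. Of the 200 members, 113 fell into 3 groups of at least 10 genes, called A (74 genes), B (20 genes) and C (19 genes). The other 87 fell into 37 groups of at most 9 genes, 19 of them single genes. The median correlation was 0.886 between pairs of genes in group A, 0.904 in B and 0.944 in C, against 0.139 over all pairs of members. The tree joins genes by average correlation, so the cut does not hold for each pair. The lowest correlation of a pair was 0.230 in A, 0.686 in B and 0.741 in C. These groups come from the values they describe, the points of each correlation share library and depth, and no test was made.

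**Figure D3:**
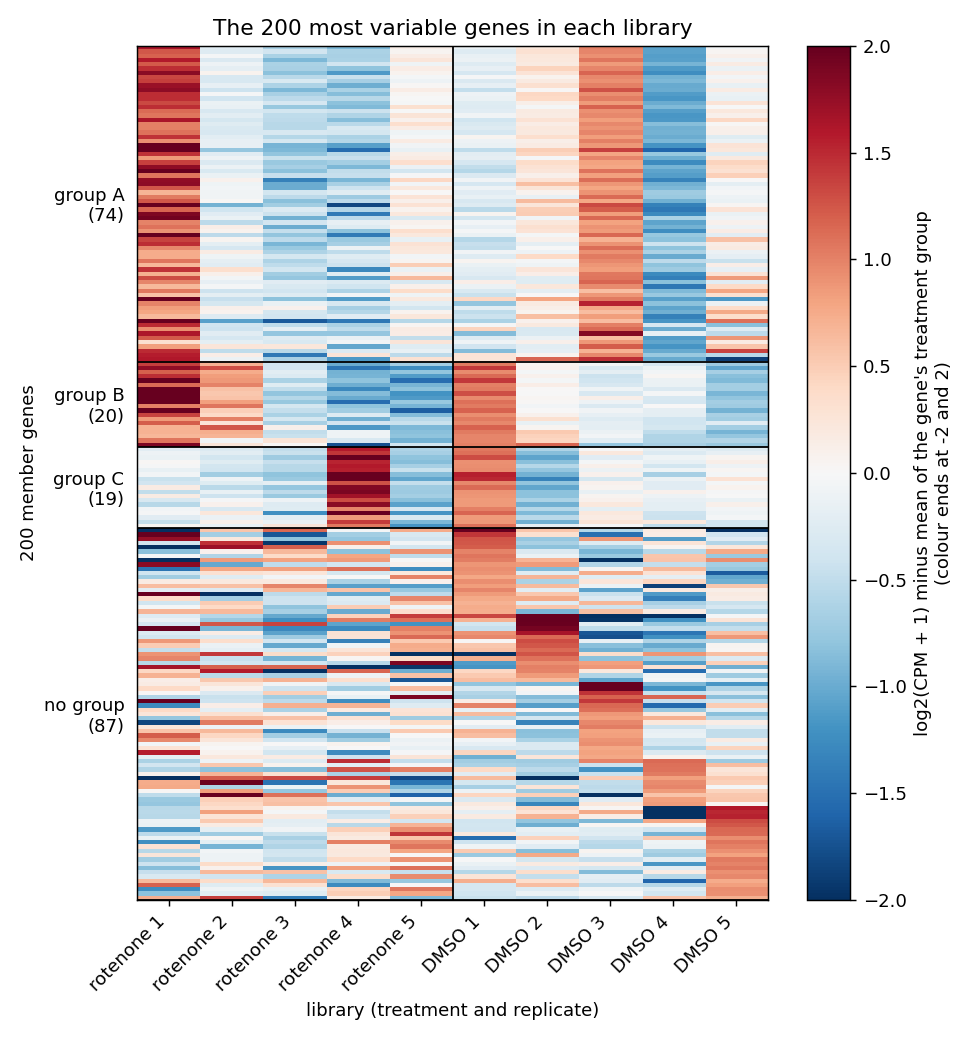
Heat map of the 200 members (rows) in the 5 rotenone and 5 DMSO libraries (columns); colour is log2(CPM + 1) minus the gene's mean in that treatment, red for above and blue for below. Group A (74 genes) is red in rotenone replicate 1 and DMSO replicate 3, group B (20 genes) in rotenone replicates 1 and 2 and DMSO replicate 1, and group C (19 genes) in rotenone replicate 4 and DMSO replicate 1.

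Group A was high in rotenone replicate 1 and in DMSO replicate 3 and low in DMSO replicate 4. Its genes had median levels of 49.3, 18.1, 11.8, 13.0 and 21.3 CPM in rotenone replicates 1 to 5, against 25.9, 35.7, 60.7, 13.2 and 35.4 CPM in DMSO replicates 1 to 5. Rotenone replicate 1 was the highest rotenone library for all 74 genes, by a median of 3.07-fold over the median of the other 4, with a range of 1.38- to 68.5-fold. DMSO replicate 3 was the highest DMSO library for 69 genes, by a median of 2.14-fold over all 74, and DMSO replicate 4 the lowest for 69. Without rotenone replicate 1, the largest group of the tree had 75 genes, 68 of them from group A. With neither rotenone replicate 1 nor DMSO replicate 3, an alternative chosen after the data were seen, it had 59 genes, 48 of them from group A.

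The 2 genes closest to the mean profile of group A were Nfu_g_1_018072 and Nfu_g_1_001221. Nfu_g_1_018072 had 101, 26.7, 19.7, 16.4 and 34.3 CPM in rotenone replicates 1 to 5, against 44.1, 55.9, 96.9, 22.1 and 46.2 CPM in DMSO replicates 1 to 5. Nfu_g_1_001221 had 145, 50.5, 46.0, 38.5 and 62.6 CPM in rotenone replicates 1 to 5, against 81.3, 122, 194, 46.0 and 101 CPM in DMSO replicates 1 to 5. In both genes the 2 treatments overlapped only through rotenone replicate 1 and DMSO replicate 4, and DMSO replicate 4 lay near the low rotenone libraries. In Nfu_g_1_018072 the other rotenone libraries had 16.4 to 34.3 CPM, against 44.1 to 96.9 CPM in the other DMSO libraries. In Nfu_g_1_001221 the other rotenone libraries had 38.5 to 62.6 CPM, against 81.3 to 194 CPM in the other DMSO libraries. Nfu_g_1_005078, described above for its peak in rotenone replicate 1, is also in group A.

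Group A went in part with measures of the libraries as a whole. On the first principal component of log2 CPM over genes, rotenone replicate 1 scored -41.2 and the other rotenone libraries 17.7 to 35.4, against -23.9 in DMSO replicate 3, 7.29 in DMSO replicate 4 and -18.8 to -10.8 in the other 3 DMSO libraries. Members and genes of like profile are among the genes of this component. The single most abundant gene, which is no member, took 1.17%, 0.723%, 0.733%, 0.764% and 0.858% of the counts in rotenone replicates 1 to 5, against 0.716%, 0.967%, 1.07%, 0.709% and 0.815% in DMSO replicates 1 to 5. Rotenone replicate 1 and DMSO replicate 3 were the highest of their treatments and DMSO replicate 4 the lowest of its own, as in group A. DMSO replicate 1, however, was close to DMSO replicate 4. In rotenone this gene was lowest in replicate 2, where most genes of group A were lowest in replicate 4 (41 genes) or 3 (29 genes). The part of either measure in the result was not tested. In library size, rotenone replicate 1 had 21755087 counts and DMSO replicate 3 had 29558987, neither of them an extreme of its treatment. The part of library size was not tested either.

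The profile of group A reached beyond the members. Of the 11481 other candidates, 408 had a correlation of at least 0.9 with the mean profile of group A over the 10 libraries and 118 a correlation of -0.9 or below, as a description. The rule leaves genes with a lower DMSO SD/mean outside the members, so the 408 genes had to vary less in DMSO. Their median SD/mean over the DMSO libraries was 0.230, against 0.510 in group A.

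Group B was high in DMSO replicate 1 and in rotenone replicates 1 and 2. Its genes had median levels of 74.0, 39.1, 16.8, 15.0 and 11.0 CPM in rotenone replicates 1 to 5, against 74.6, 43.3, 32.14, 35.06 and 21.8 CPM in DMSO replicates 1 to 5. DMSO replicate 1 was the highest DMSO library for 19 of the 20 genes and rotenone replicate 1 the highest rotenone library for 15, with replicate 2 the highest for the other 5. DMSO replicate 5 was the lowest DMSO library for 17 genes.

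Of the 2 genes closest to the mean profile of group B, Nfu_g_1_015349 had 195, 139, 42.8, 20.1 and 23.3 CPM in rotenone replicates 1 to 5, against 182, 71.6, 53.9, 61.4 and 32.6 CPM in DMSO replicates 1 to 5. Nfu_g_1_015803, at a lower level, had 23.9, 14.5, 6.30, 3.83 and 4.96 CPM in rotenone replicates 1 to 5, against 22.4, 10.9, 9.95, 8.03 and 5.86 CPM in DMSO replicates 1 to 5. The high libraries of the 2 treatments were at nearly the same level in each gene, 195 and 182 CPM in Nfu_g_1_015349 and 23.9 and 22.4 CPM in Nfu_g_1_015803.

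Group C was high in 1 library of each treatment, rotenone replicate 4 and DMSO replicate 1, for all 19 genes. Its genes had median levels of 5.52, 5.31, 4.12, 20.5 and 3.45 CPM in rotenone replicates 1 to 5, against 25.2, 7.03, 12.3, 10.2 and 12 CPM in DMSO replicates 1 to 5. The high library exceeded the median of the other 4 by a median of 4.58-fold in rotenone, where all 19 genes were at least 2-fold above, and by 2.31-fold in DMSO, where 16 were. DMSO replicate 2 was the lowest DMSO library for 18 genes. Rotenone replicate 1, high in groups A and B, lay within the other rotenone libraries here. Both high libraries of group C were extremes of library size. Rotenone replicate 4 was the smallest rotenone library (16693800 counts) and DMSO replicate 1 the largest DMSO library (31017835 counts). The part of library size in group C was not tested.

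Nfu_g_1_007533, the gene closest to the mean profile of group C, had 5.19, 4.96, 4.12, 20.5 and 3.68 CPM in rotenone replicates 1 to 5, against 22.7, 6.44, 10.3, 8.97 and 8.50 CPM in DMSO replicates 1 to 5. Nfu_g_1_010748 had 2.48, 2.21, 1.74, 9.05 and 1.36 CPM in rotenone replicates 1 to 5, against 22.4, 5.04, 11.6, 8.07 and 8.75 CPM in DMSO replicates 1 to 5. In Nfu_g_1_010748 the rotenone libraries other than replicate 4 were all below the lowest DMSO library. Among the other candidates, 164 had a correlation of at least 0.9 with the mean profile of group C, 54 with that of group B, and 4 and 14 a correlation of -0.9 or below with C and B.

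**Figure D4:**
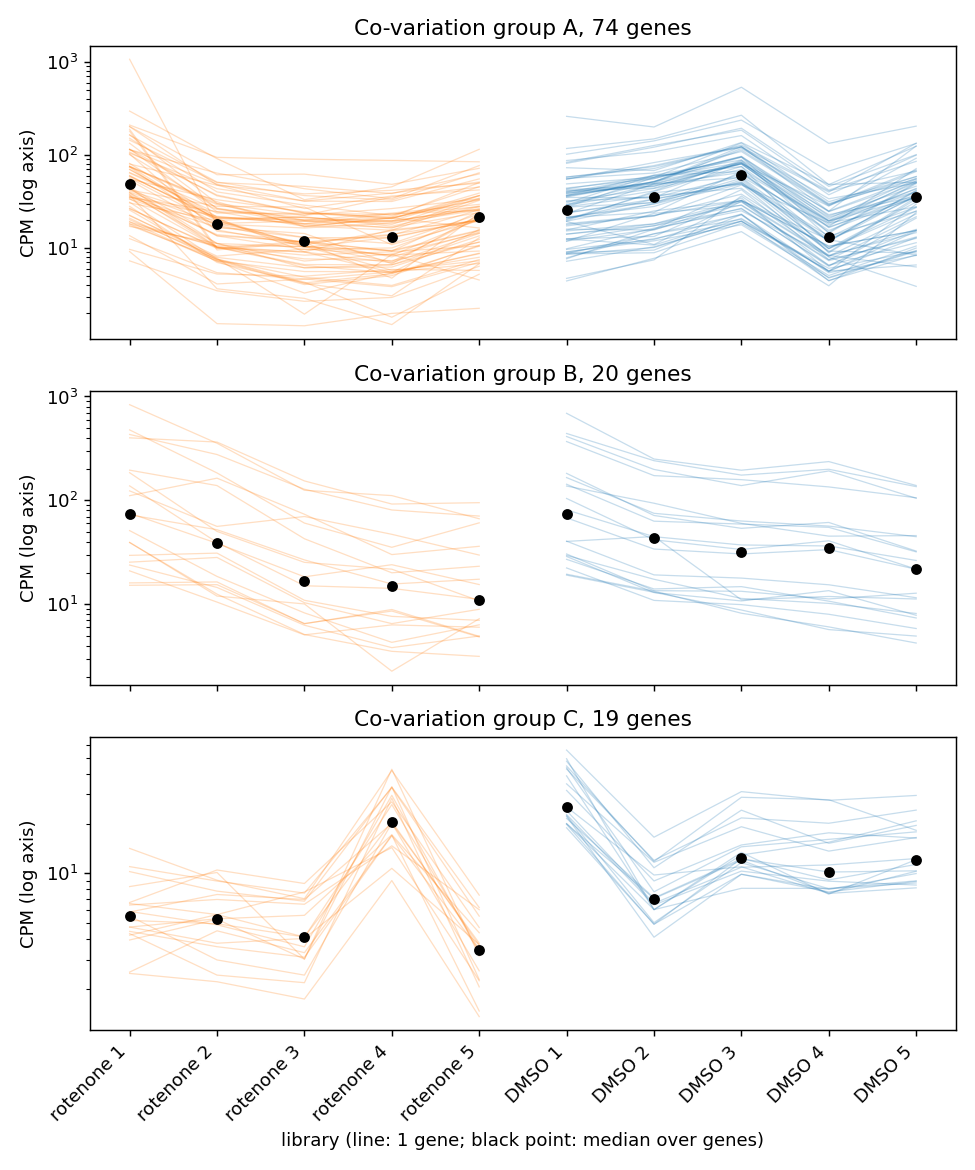
CPM (log axis) of every gene of groups A (74 genes), B (20 genes) and C (19 genes) in the rotenone (orange, left) and DMSO (blue, right) libraries; each line is a gene and black points are medians over genes. Medians peak at 49.3 CPM in rotenone replicate 1 and 60.7 CPM in DMSO replicate 3 in group A, and at 20.5 CPM in rotenone replicate 4 and 25.2 CPM in DMSO replicate 1 in group C.

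Whether genes that vary together in DMSO also do so in rotenone can be read with no tree. Of the 87 members that were highest in DMSO replicate 3, 76 (87.4%) were highest in rotenone replicate 1, against 49.0% of the 2063 other candidates highest in DMSO replicate 3. With rotenone replicate 1 left out, 61 of the 87 members (70.1%) were highest in rotenone replicate 5, against 38.9% of those candidates. Of the 27 members highest in DMSO replicate 5, 12 (44.4%) were highest in rotenone replicate 5, against 16.0% of the 1619 other candidates. Of the 58 members highest in DMSO replicate 1, 22 (37.9%) were highest in rotenone replicate 4, against 41.3% of other candidates. Another 19 (32.8%) were highest in rotenone replicate 1, against 25.5%. With rotenone replicate 1 left out, 24 of the 58 (41.4%) were highest in rotenone replicate 2, against 21.2% of other candidates. In that setting 22 (37.9%) were highest in rotenone replicate 4, against 46.5%. Genes of a group are not independent of each other, and no test was made of these shares.

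Some members stood in adjacent rows of the count table. There were 11 such pairs, formed by 20 members, and both genes of 7 pairs fell in the same group of A, B or C. In 6 of the 11 pairs the 2 genes had the same highest library in both treatments, as did 17.4% of all 19900 pairs of members. Among the 5802 pairs of candidates in adjacent rows, the share was 8.29%. The median correlation within the 11 pairs was 0.982. In the pair Nfu_g_1_008566 and Nfu_g_1_008199, chosen after its values were seen, even the levels were close. Nfu_g_1_008566 had 16.1, 16.4, 6.504, 8.93 and 4.92 CPM in rotenone replicates 1 to 5, against 19.5, 13.4, 8.22, 6.07 and 4.25 CPM in DMSO replicates 1 to 5. Nfu_g_1_008199 had 15.3, 15.5, 6.54, 8.63 and 4.85 CPM in rotenone replicates 1 to 5, against 19.1, 13.07, 8.83, 5.72 and 4.96 CPM in DMSO replicates 1 to 5. Gene copies that share reads would be uncertain in such counts. No source used here says whether the rows are in genome order.

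An on-off pattern was taken as at least 1 library below 0.5 CPM and at least 1 at 5 CPM or more. It held in 7 of the 200 members and in 2 of the 11481 other candidates. The rule chose members on these values, so nothing is read from the difference. In 5 of the 7 members the off libraries were all rotenone libraries. The rule asked for a DMSO mean of at least 10 CPM and set no floor in rotenone, so nothing is read from this split either. With off set below 0.2 CPM the pattern held in 2 members. These were Nfu_g_1_016232, off in DMSO replicate 3, and Nfu_g_1_017941, off in rotenone replicate 3.

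The clearest case with both states in both treatments was Nfu_g_1_009277. It had 21.8, 31.6, 14.7, 15.9 and 0.404 CPM in rotenone replicates 1 to 5, against 0.258, 24.4, 12.7, 18.7 and 15.2 CPM in DMSO replicates 1 to 5. It was off in 1 library of each treatment, with 11 counts in rotenone replicate 5 and 8 in DMSO replicate 1, and at 12.7 CPM or more in the other 8. Nfu_g_1_018691, chosen after its values were seen, also had 2 levels with nothing between. It had 0.460, 13.7, 14.9, 15.5 and 0.845 CPM in rotenone replicates 1 to 5, against 13.3, 0.629, 12.01, 15.2 and 12.2 CPM in DMSO replicates 1 to 5. The low libraries of the 2 genes coincided in rotenone replicate 5 and differed elsewhere.

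Nfu_g_1_016232 was off in DMSO replicate 3. It had 2.71, 36.4, 35.3, 36.4 and 19.6 CPM in rotenone replicates 1 to 5, against 18.2, 14.2, 0.0338, 13.09 and 17.2 CPM in DMSO replicates 1 to 5. The value in DMSO replicate 3 was 1 count among 29558987. The other 4 DMSO libraries lay between 13.09 and 18.2 CPM, and the rotenone libraries took 3 levels, near 36 CPM in replicates 2, 3 and 4, 19.6 CPM in replicate 5 and 2.71 CPM in replicate 1.

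In the other 4 members with this pattern the off state was in rotenone. Nfu_g_1_014275 had 4.96, 12.9, 0.283, 3.17 and 0.294 CPM in rotenone replicates 1 to 5, against 11.0, 9.26, 9.88, 28.5 and 20.2 CPM in DMSO replicates 1 to 5. Nfu_g_1_010964 had 4.41, 7.49, 0.242, 2.64 and 0.772 CPM in rotenone replicates 1 to 5, against 7.06, 6.63, 7.85, 15.3 and 17.1 CPM in DMSO replicates 1 to 5. Both genes were lowest in rotenone replicates 3 and 5 and highest in DMSO replicates 4 and 5, and in both rotenone replicate 2 alone of its treatment lay within the DMSO range.

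Nfu_g_1_017941 had 5.56, 13.8, 0.0808, 10.1 and 1.51 CPM in rotenone replicates 1 to 5, against 28.7, 43.1, 24.7, 6.74 and 20.1 CPM in DMSO replicates 1 to 5. Its value in rotenone replicate 3 was 2 counts. Nfu_g_1_020343 had 0.414, 27.5, 18.9, 8.33 and 5.73 CPM in rotenone replicates 1 to 5, against 31.8, 7.07, 7.92, 13.7 and 15.6 CPM in DMSO replicates 1 to 5. Apart from rotenone replicate 1, its levels spread between 5.73 and 31.8 CPM, with no separate on state.

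**Figure D5:**
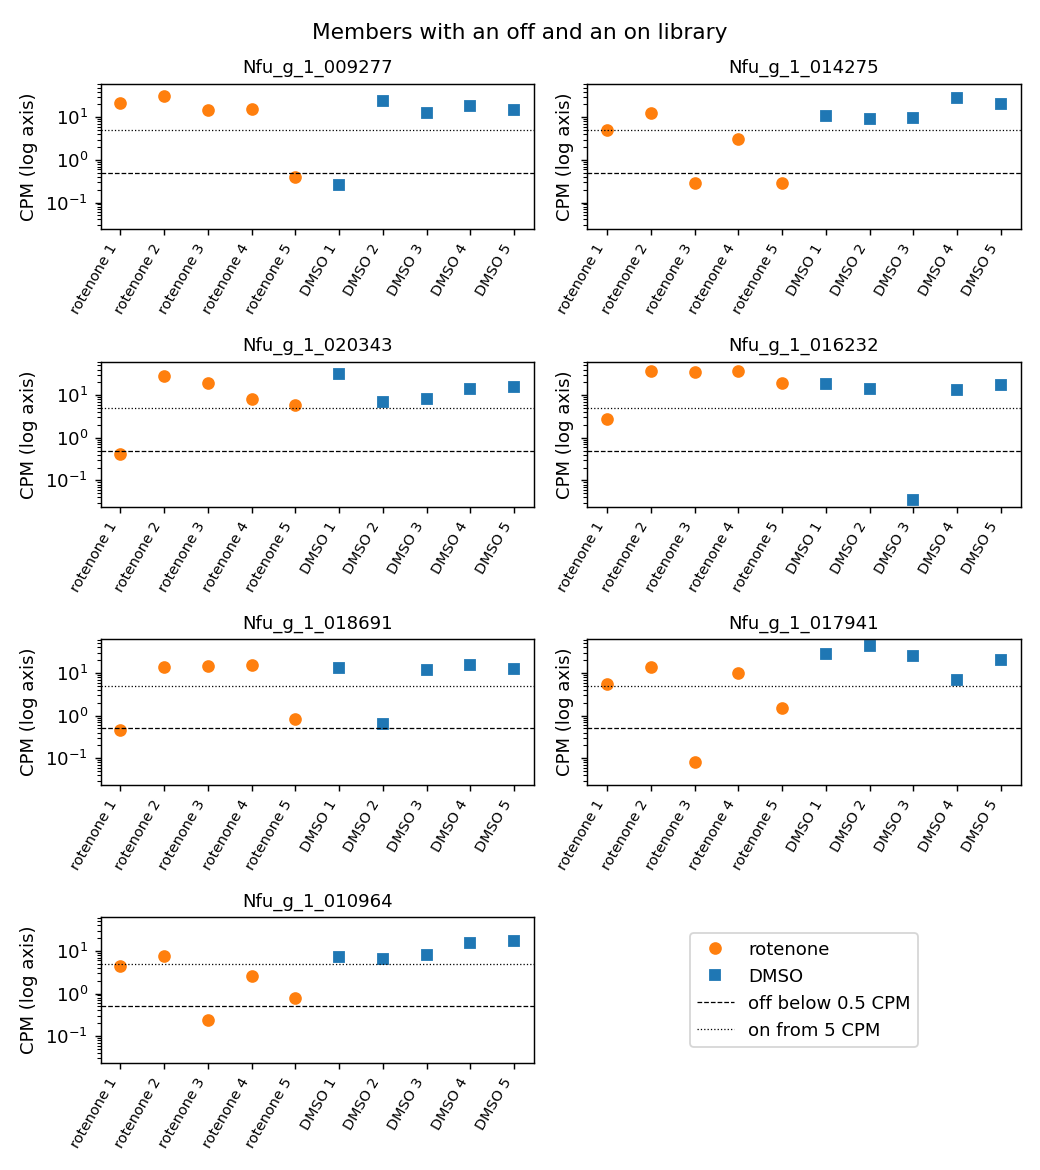
CPM (log axis) of the 7 members with an off library (below 0.5 CPM, dashed line) and an on library (5 CPM or more, dotted line), rotenone as orange circles on the left and DMSO as blue squares on the right. Nfu_g_1_009277 is off in rotenone replicate 5 and DMSO replicate 1 and Nfu_g_1_016232 in DMSO replicate 3. The other 5 genes are below 0.5 CPM in rotenone libraries only, where the rule set no floor on the mean as it did in DMSO.

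Between the treatments, 0 of the 200 members passed an adjusted p of 0.05 in edgeR's quasi-likelihood test over all 19628 genes tested, where 147 genes, or 0.749% of those tested, passed. The rule had removed genes whose ranges do not overlap, so this count follows largely from the rule and nothing is read from it. At an unadjusted p under 0.05 in edgeR there were 30 members (15%), against 16.4% of all genes tested. Without rotenone replicate 1 there were 86 of the 200 members, a higher share than the 29.4% of genes tested. Without rotenone replicate 3 there were 20 of the 200, a lower share than the 12.05% of genes tested. The rule chose the members on all 10 libraries, so nothing is read from these shares. DESeq2 called 10 members, all lower with rotenone, where it called 4.32% of genes, and limma-voom called 0. Without rotenone replicate 1 edgeR called 20 members, all lower with rotenone, or 10% of them, against 11.09% of genes tested. Without rotenone replicate 4 it called 4 members, all lower, against 1.04% of genes tested. Without DMSO replicate 3 it called 1 member, higher with rotenone, against 0.229% of genes, and without DMSO replicate 4 it called 1, lower, against 0.217%.

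Fold changes were imprecise in these genes, with a median standard error on the log2 scale of 0.47 in members and 0.12 over all genes tested. The median log2 fold change, rotenone over DMSO, was -0.48 in members and 0.01 over all genes tested, and 160 members had a value below 0. The members' median was -0.85 without rotenone replicate 1 and -0.24 without DMSO replicate 3. The rule set a floor on the DMSO mean and none on the rotenone mean. All candidates met that floor, and they had a median log2 fold change of 0.016, with 45.6% of values below 0. Members were also chosen for their spread over the DMSO libraries, so nothing is read from the sign. Group C had the lowest median, -0.94, with all 19 genes below 0 and 0 called, while the median was -0.48 in group A and -0.10 in group B. In group C, Nfu_g_1_010748 averaged 3.37 ± 3.20 CPM with rotenone and 11.2 ± 6.69 CPM with DMSO (SD, n = 5 each). Its log2 fold change was -1.77, with an SE of 0.56 and an edgeR adjusted p of 0.170. Nfu_g_1_009223 averaged 1.01 ± 0.300 CPM with rotenone and 12.4 ± 25.02 CPM with DMSO (SD, n = 5 each). Its log2 fold change rested on DMSO replicate 3 and was -3.62, with an SE of 1.26 and an edgeR adjusted p of 0.207.

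The sign of the 2 members with the largest rotenone variation turned on 1 library. Nfu_g_1_005078 averaged 228 ± 472 CPM with rotenone and 67.2 ± 40.5 CPM with DMSO (SD, n = 5 each). Its log2 fold change was 1.77, with an SE of 1.27 and an edgeR adjusted p of 0.505. Without rotenone replicate 1 it was -1.96, with an edgeR adjusted p of 0.0279. Nfu_g_1_010475 averaged 37.3 ± 73.6 CPM with rotenone and 19.5 ± 9.98 CPM with DMSO (SD, n = 5 each). Its log2 fold change was 0.94, with an SE of 1.12 and an edgeR adjusted p of 0.705. Without rotenone replicate 1 it was -2.14, with an edgeR adjusted p of 0.0244. Both genes were named for their rotenone spread, which rested on the library left out here. Nfu_g_1_010475 met the overlap condition only through that library. In that setting 11.09% of all genes tested passed, so nothing is read from these adjusted p-values.

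At the limit of the list, Nfu_g_1_022237, a gene of group A, had 13.6, 4.10, 4.61, 5.51 and 6.80 CPM in rotenone replicates 1 to 5, against 14.09, 17.3, 26.3, 6.503 and 15.6 CPM in DMSO replicates 1 to 5. Only rotenone replicates 1 and 5 lay above the lowest DMSO library. Its log2 fold change was -1.21 (SE 0.40, edgeR adjusted p = 0.186) with all libraries and -1.60 (edgeR adjusted p = 0.0201) without rotenone replicate 1. The last member, Nfu_g_1_019168, had 14.8, 19.9, 19.3, 12.6 and 20.7 CPM in rotenone replicates 1 to 5, against 4.38, 11.3, 16.9, 9.99 and 8.56 CPM in DMSO replicates 1 to 5. Its log2 fold change was 0.77 (SE 0.30, edgeR adjusted p = 0.241), and its rotenone values overlapped the DMSO values in DMSO replicate 3 alone.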

How the data were processed

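Brain RNA of 10 samples was sequenced, 5 with rotenone and 5 with DMSO. Per the labels, libraries were made with Illumina's TruSeq RNA kit v2, which does not mark strand, so overlapping and antisense genes cannot be told apart. Among tools, featureCounts 1.4.6-p4, STAR 2.4.1d and bcl2fastq 1.8.4 appear in the submitters' processing notes. The build and the annotation are not given in these sources. The authors deposited raw counts per gene and RPKM values. The deposited RPKM values match the counts when library totals are taken in turn down each column, so RPKM served only to recover gene lengths (at least 50 counts and an RPKM of at least 1; coefficient of variation at most 0.0260% among candidates).

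The member rule used counts per 1000000 of column sums (CPM). Rotenone was compared with DMSO using edgeR 4.0.16 in R 4.3.3 (filterByExpr with a minimum count of 10 and total of 15, TMM scaling, quasi-likelihood test, Benjamini-Hochberg adjustment over 19628 genes). The SE of an edgeR log2 fold change was taken as its absolute value over the square root of the test's F statistic. The self-test ran on simulated counts. Alternatives were RLE scaling, no filter, DESeq2 1.42.0, limma-voom 3.58.1 and each library left out. Trees used average linkage (scipy 1.17.1). The members, lists and alternatives were chosen with earlier results of these data known.

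Genes named are the 5 members with the largest DMSO SD/mean, the last 2 members, 2 genes closest to each group's mean profile, 6 on-off members and the 2 with the largest rotenone SD/mean. Members called by edgeR would also have been named, and there were 0. Another 4 (Nfu_g_1_016456, Nfu_g_1_008566, Nfu_g_1_008199 and Nfu_g_1_018691) were chosen after their values were seen.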

Additional observations from a re-analysis of the deposited data

Results flagged for a closer look

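Dixon's test was run on 60 sets of 5 values, each from 1 treatment. The sets were the named members, the mean profiles of groups A, B and C and 6 measures of the libraries. The highest or the lowest library lay far from the others 18 times. Chance marks about 1 in 20 independent sets, a rate that does not apply here. The DMSO values of members were chosen for their spread, as were the rotenone values of Nfu_g_1_005078 and Nfu_g_1_010475. The group profiles and the genes closest to them came from the libraries of both treatments, and on-off members from their off libraries. The sets also share libraries, so the flags are a description and nothing is read from their number. Rotenone replicate 1 was the high library in Nfu_g_1_022237 (13.6 CPM), Nfu_g_1_018072 (101 CPM), Nfu_g_1_001221 (145 CPM), Nfu_g_1_005078 (1073 CPM) and Nfu_g_1_010475 (169 CPM). The same library was highest in the share of counts taken by members (1.22%) and lowest in its mean Spearman correlation with the other rotenone libraries (0.958) and on the first principal component of log2 CPM (-41.2). Rotenone replicate 4 was the high library in Nfu_g_1_007533 (20.5 CPM), Nfu_g_1_010748 (9.05 CPM) and the mean profile of group C (1.62 above the treatment mean on the log2 scale).

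In DMSO, replicate 3 was the high library in Nfu_g_1_009223 (57.2 CPM) and Nfu_g_1_019572 (38.7 CPM) and the low one in Nfu_g_1_016232 (0.0338 CPM). DMSO replicate 2 was the high library in Nfu_g_1_014183 (370 CPM) and Nfu_g_1_021789 (40.6 CPM), and DMSO replicate 1 in Nfu_g_1_015349 (182 CPM) and Nfu_g_1_007533 (22.7 CPM).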

How the results depend on the processing

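Reselection kept 131 members with a DMSO floor of 5 CPM and 103 with 20 CPM, 169 by the SD of log2(CPM + 1), and 134 to 200 with 1 library left out. Members whose rotenone SD/mean reached the smallest DMSO value of any member numbered 160, and 89 to 200 with 1 library left out. The lowest, 89, came without rotenone replicate 1, also with the limit kept at 0.444; without a DMSO library the limit itself falls. The 7 on-off members were 2 with off below 0.2 CPM. The 52 members with a single high DMSO library were 126 at a ratio of 1.5 and 8 at a ratio of 3, and 44 to 81 with 1 library left out. The largest group of the tree, group A, had 74 genes; the largest group had 30 with complete linkage (all 30 from group A) and 73 to 80 with 1 library left out, of which 68 to 74 were from group A. Members called were 0 by edgeR, which called 0.749% of all genes tested, and 10 by DESeq2 (6 members without an adjusted p), which called 4.32%. With 1 library left out edgeR called 0 to 20 members. The 20 came without rotenone replicate 1, where 11.09% of all genes tested were called. Causes were not tested.

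Of 294 log2 fold changes of the 21 members named by rule, which leaves out the 4 chosen after their values were seen, under alternatives, 24 had the other sign, in 8 members. In limma-voom Nfu_g_1_015349 had -0.28, Nfu_g_1_005078 -0.59 and Nfu_g_1_010475 -1.15. With 1 library left out the values ran between -0.96 and 0.40 in Nfu_g_1_019572, -0.29 and 1.12 in Nfu_g_1_021789, -0.61 and 0.30 in Nfu_g_1_015803, -0.50 and 0.62 in Nfu_g_1_015349, -0.12 and 0.57 in Nfu_g_1_009277, -0.86 and 0.15 in Nfu_g_1_020343, -1.96 and 2.12 in Nfu_g_1_005078, and -2.14 and 1.25 in Nfu_g_1_010475. Another 4 values passed the threshold in the same direction: Nfu_g_1_022237 and Nfu_g_1_010748 with DESeq2, Nfu_g_1_022237 without rotenone replicate 1 and Nfu_g_1_010748 without rotenone replicate 4. No paired analysis was possible because the serial numbers in the sample titles differ between the treatments and no label says that they pair samples.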
